A study of Mus musculus with 6 samples.

Results

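The Ms4a genes encode membrane proteins, many of which are known from leukocytes. Here 10 of these genes are described in mouse ovaries that carried a Dennd1a transgene and in wild-type ovaries. They were chosen by abundance, as the 10 with the largest summed read count over all 6 libraries among the 15 genes of the deposited table whose symbol is Ms4a followed by a number and, at most, a letter. The table holds 18280 genes. The last gene taken, Ms4a14, had 106 counts in all and the first one left out, Ms4a1, had 49. The order of the levels is a description. The rule itself did not use the difference between the genotypes. However, the members and the gene lists were chosen with earlier results of these data known. Shares of members called are therefore not an unbiased measure of the family.

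Each library came from the whole ovary of 1 genotype, with 3 animals labelled Dennd1aTG (TG) and 3 labelled WT. Both genotypes were primed with PMSG, a serum gonadotropin that acts on the FSH receptor, and the tissue was collected 44 hours later. The strain, the age of the animals and the promoter and design of the transgene are not given in the sources used here. No Cre, deletion or other treatment is named for either group.

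MS4A proteins cross the membrane with 4 helices and sit beside receptors, whose signals they modulate. The founding member, MS4A1, is the B cell antigen CD20, and MS4A2 is the beta chain of the mast cell receptor for IgE. Many other members are known from monocytes, macrophages and T cells. In the ovary these cells live in the stroma and theca. They take part in ovulation and in the removal of atretic follicles and old corpora lutea. The mouse genes lie in 1 cluster on chromosome 19.

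Libraries held between 17075484 and 18516171 estimated counts. Dennd1a measured 570, 582 and 588 CPM (counts scaled to library size and composition) in TG and 44.6, 39.5 and 49.3 CPM in WT, each in the order of replicates 1 to 3 as everywhere here, so each library carried the level its label calls for. All 9 ovary markers looked for, among them the granulosa genes Fshr and Foxl2 and the oocyte gene Zp3, were present. A pair of libraries stood apart for other tissues. TG replicate 2 had 86.8 CPM of the fat gene Cfd, against 9.45 or less elsewhere. WT replicate 3 had 126 CPM of the muscle gene Des and 40.9 CPM of the oviduct gene Ovgp1, against at most 40.5 and 5.99 elsewhere. Results on members are given with and without this pair where its removal changes a call.

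Most Ms4a transcripts had a lower mean level in TG than in WT ovaries, and 3 of them passed the test. Ms4a4c, Ms4a6b and Ms4a6c fell in TG at an adjusted p under 0.05 in edgeR, which is 3 of 10 members, while 1.02% of all 14124 tested genes were lower at that threshold. No member rose, against 0.0354% of tested genes higher and 1.05% called in either direction. The log2 fold change of TG over WT was below 0 for 9 of 10 members, with a median of -0.97, beside 49.3% of all tested genes below 0 and a median of 0.0 over them. All 3 TG libraries lay below all 3 WT libraries for 6 members, against 5.04% of tested genes in that direction and 8.25% without overlap in either. At an unadjusted p under 0.05 there were 7 members, each with a fold change below 0, against 3.14% of tested genes lower and 4.08% in either direction. All 10 members passed the filter on low counts. However, 3 of them, Ms4a4c, Ms4a4b and Ms4a14, reached its cutoff in all 3 WT libraries but in only 2 TG libraries. The TG libraries alone would not have passed them. In RNA of a whole ovary, fewer cells of a type and less RNA per cell cannot be told apart.

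**Figure D1:**
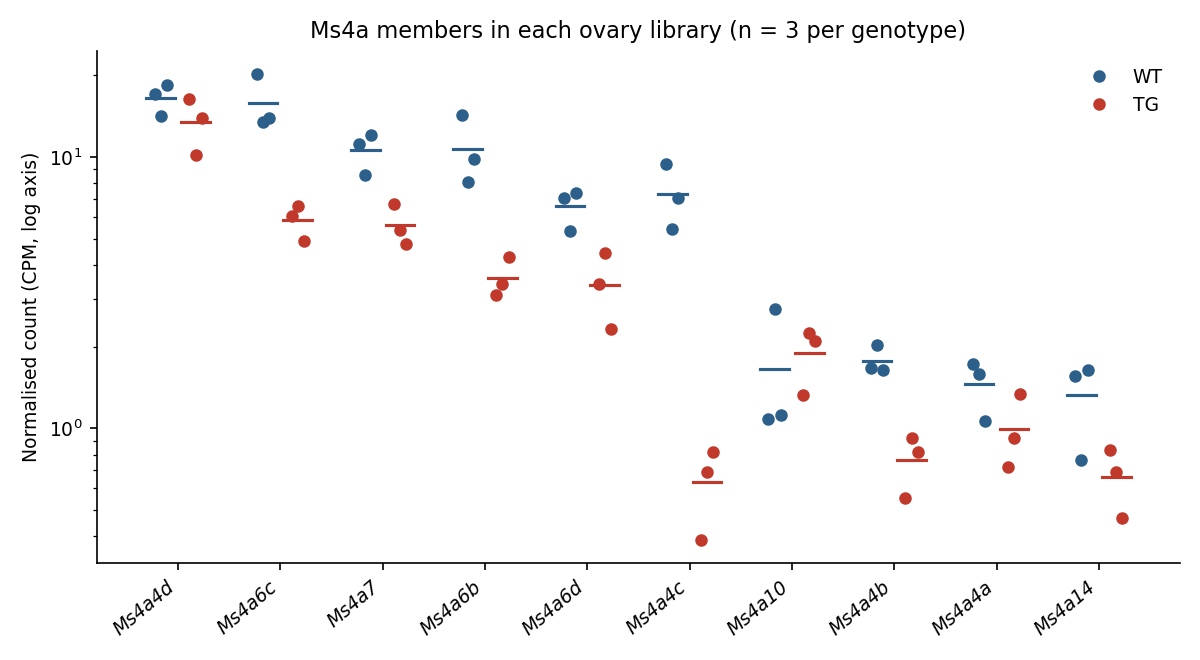
Normalised counts of the 10 members in each library, in CPM on a log axis, with WT in blue and TG in red, points for libraries and bars for the mean of 3. Levels are to be read within a gene, since CPM are not corrected for length. Ms4a4c lies between 0.388 and 0.817 CPM in TG and between 5.42 and 9.38 CPM in WT, while the groups overlap for Ms4a4d, Ms4a10, Ms4a4a and Ms4a14.

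Ms4a4c showed the largest fall of the 3. It measured 0.388, 0.689 and 0.817 CPM in TG and 9.38, 5.42 and 7.05 CPM in WT. These values rest on 7, 12 and 14 reads in TG and on 174, 99 and 120 reads in WT. The lowest WT library was thus several times above the highest TG library. Group means were 0.631 ± 0.22 and 7.28 ± 1.99 CPM (SD, n = 3 each), an 11.5-fold lower level in TG with a 95% interval from 6.91 to 19. On the log2 scale this was -3.52 with an SE of 0.32, and edgeR gave an adjusted p of 3.50e-04. The interval lies beyond that of each other member, of which Ms4a6b reached furthest, at 4.36-fold. The call of Ms4a4c held in 18 of 18 alternative analyses, with a log2 fold change between -3.74 and -1.99, and the smallest size came from log2(FPKM + 1), a scale that shrinks the change of low genes.

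The gene after Ms4a4c in the cluster is Ms4a4b, a member known from T cells. The 250 bases before a RefSeq transcript start of each gene are shown because these neighbours share a run of 20 bases near the start. The transcript used for Ms4a4c starts 2944 bases after the listed start of the gene, so its whole window lies within the gene. The bases are from RefSeq on build GRCm38.p6, plus strand, at chr19:11407411-11407660 for Ms4a4c and chr19:11443308-11443557 for Ms4a4b, and capitals mark the longest run of bases that both share.
Ms4a4c: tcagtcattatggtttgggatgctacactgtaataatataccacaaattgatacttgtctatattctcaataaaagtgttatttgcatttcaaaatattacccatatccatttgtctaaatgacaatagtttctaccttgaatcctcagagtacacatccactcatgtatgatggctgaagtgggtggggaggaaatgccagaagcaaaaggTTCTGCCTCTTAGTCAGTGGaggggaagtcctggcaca
Ms4a4b: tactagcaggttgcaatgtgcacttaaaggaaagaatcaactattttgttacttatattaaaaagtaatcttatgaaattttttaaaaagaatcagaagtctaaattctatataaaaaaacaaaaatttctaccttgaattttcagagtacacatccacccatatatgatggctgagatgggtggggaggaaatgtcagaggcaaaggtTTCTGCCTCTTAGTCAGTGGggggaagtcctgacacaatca
Over 252 aligned columns of both windows 70.6% are identical, and the printed bases match more closely towards the start than at the far end. The shared run of 20 bases ends 19 bases before the start of Ms4a4c and 22 bases before that of Ms4a4b.

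Ms4a4b measured 0.555, 0.919 and 0.817 CPM in TG and 1.67, 2.02 and 1.64 CPM in WT. The groups did not overlap, but the log2 fold change, -1.22 with a 95% interval from -1.89 to -0.55, missed the threshold in edgeR at an adjusted p of 0.177. It passed in 0 of 17 alternatives. In FPKM, a level scaled to transcript length and library size, Ms4a4c stood above Ms4a4b in every WT ovary, at 4.66 ± 1.35 against 1.63 ± 0.189 (SD, n = 3 each). In TG ovaries Ms4a4c, at 0.407 ± 0.143 FPKM, and Ms4a4b, at 0.70 ± 0.161 FPKM, overlapped in range, with Ms4a4b the higher of the pair in each of the 3. This order depends on the length used: per kilobase of the longest coding GENCODE transcript the TG means were 0.366 for Ms4a4c and 0.161 for Ms4a4b, and the WT mean of Ms4a4b was 0.375.

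Ms4a6c and Ms4a6b, a pair with similar transcripts, both fell. Ms4a6c measured 6.05, 6.60 and 4.90 CPM in TG and 20.2, 13.4 and 13.9 CPM in WT. Every WT library was above every TG library. On the log2 scale TG stood at -1.43 relative to WT, with an SE of 0.20 and an adjusted p of 0.00515 in edgeR, or 2.70-fold with an interval from 1.98 to 3.68, and it was called in 18 of 18 alternatives.

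Ms4a6b measured 3.11, 3.39 and 4.26 CPM in TG and 14.3, 8.10 and 9.81 CPM in WT. WT replicate 1 was the highest library for both genes of the pair. For Ms4a6b edgeR gave a log2 fold change of -1.58, SE 0.24, at an adjusted p of 0.0104, or 2.99-fold with an interval from 2.06 to 4.36. Its call was lost without TG replicate 1 (adjusted p = 0.0557), without TG replicate 2 (0.0581) and without both TG replicate 2 and WT replicate 3 (0.142), while the fold change stayed between -1.75 and -1.23 over all 18 alternatives.

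The promoter of Ms4a6c is shown because it shares a long stretch with that of Ms4a6b. The 250 bases before the start of the RefSeq transcript in the promoter table (GRCm38.p6, plus strand) are at chr19:11469118-11469367 for Ms4a6c, and the last 15 of them lie after the listed start of the gene. The window of Ms4a6b is at chr19:11518309-11518558. Its last 108 bases are part of a GENCODE transcript, and its bases are not printed. Capitals mark AGGAAGT, the core bound by ETS factors such as the myeloid regulator PU.1.
Ms4a6c: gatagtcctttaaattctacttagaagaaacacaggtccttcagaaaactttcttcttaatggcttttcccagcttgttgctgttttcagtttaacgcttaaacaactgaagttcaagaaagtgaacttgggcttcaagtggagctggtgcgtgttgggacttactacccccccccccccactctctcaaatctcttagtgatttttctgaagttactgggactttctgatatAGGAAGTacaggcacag
Over 183 aligned columns of both windows 81.4% are identical. The longest run that both share has 48 bases and holds the motif in both genes, at bases -49 to -2 of Ms4a6c and -118 to -71 of Ms4a6b.
The longest run shared by any other pair of member promoters, apart from that of Ms4a4c and Ms4a4b, was 9 bases among 44 pairs compared.

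RefSeq promoter windows of 300 bases (250 before to 50 after the start) were found for 9 of the 10 members, with Ms4a6d the exception. AGGAAGT, read on both strands, was in the windows of 2 of these 9 genes, Ms4a6c and Ms4a6b, and in 9.35% of all 32851 windows. The core of the interferon-stimulated response element (GAAA, any 2 bases, GAAA, on either strand) was in 0 of 9 members' windows, in those of 9 of 14 genes of an interferon-response list and in 3.44% of all windows. A match describes letters only, and its absence says only that these letters are not in this window.

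A further pair of members without overlap between the groups did not pass over all genes. Ms4a7, known from tissue macrophages, measured 6.71, 5.40 and 4.78 CPM in TG and 11.2, 8.54 and 12 CPM in WT. Relative to WT its log2 level was -0.91, with a 95% interval from -1.34 to -0.47, and edgeR gave an adjusted p of 0.0856. It passed in DESeq2, where 1.27% of genes were called lower, at an adjusted p of 0.00502, and without WT replicate 2 at 0.0306. Ms4a6d, the third gene of the Ms4a6 branch, measured 3.39, 4.42 and 2.33 CPM in TG and 7.06, 5.31 and 7.34 CPM in WT. TG replicate 2, the library with Cfd, was the highest of TG and WT replicate 2 the lowest of WT. Its log2 fold change, -0.96 with an SE of 0.25, had an adjusted p of 0.253 in edgeR and passed in 0 of 18 alternatives.

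For the other 4 members the groups overlapped and no alternative gave a call. Ms4a4d had the most reads of the family and the smallest fold change among the 6 members with the most reads. It measured 16.4, 10.2 and 13.9 CPM in TG and 17.1, 14.1 and 18.4 CPM in WT, so TG over WT was -0.29 on the log2 scale, with a 95% interval from -0.70 to 0.12. Without TG replicate 2 and WT replicate 3 it was -0.04. Ms4a4a, a marker of tissue-resident and alternatively activated macrophages, measured 0.721, 0.919 and 1.34 CPM in TG and 1.72, 1.59 and 1.06 CPM in WT. The WT libraries were mostly higher, and the 95% interval of the log2 fold change of -0.56 ran from -1.31 to 0.20.

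Ms4a14 measured 0.832, 0.689 and 0.467 CPM in TG and 1.56, 0.766 and 1.64 CPM in WT. Its log2 fold change of -0.98 had a wide interval, from -1.87 to -0.10. Ms4a10, the member at the outer end of the cluster, was the only one of the 10 with a fold change above 0. It measured 1.33, 2.24 and 2.10 CPM in TG and 1.08, 2.74 and 1.12 CPM in WT, and its log2 fold change of 0.20 had an interval from -0.71 to 1.10. Libraries held 8 to 50 reads of Ms4a14, Ms4a4a and Ms4a10, and the data do not tell apart changes within each interval. That of Ms4a14 left out 0, but its adjusted p in edgeR was 0.9997. WT reads of Ms4a10 were 20, 50 and 19, so its interval is not set by depth alone.

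Levels per length put Ms4a4d first in both genotypes. In WT ovaries the order by FPKM was Ms4a4d at 12.8 ± 1.72, Ms4a6c at 10.4 ± 2.32, Ms4a7 at 9.06 ± 1.62, Ms4a6b at 7.07 ± 2.16, Ms4a6d at 5.46 ± 0.933 and Ms4a4c at 4.66 ± 1.35 (SD, n = 3). Ms4a10, Ms4a4a and Ms4a4b followed at 2.28 ± 1.34, 1.76 ± 0.439 and 1.63 ± 0.189 FPKM, and Ms4a14 came last at 0.337 ± 0.119. Each neighbour in this order overlapped the next except Ms4a4b and Ms4a14. Per kilobase of the longest coding GENCODE transcript Ms4a6b was at 4 in WT, sixth and below Ms4a6d and Ms4a4c, and Ms4a4b at 0.375. In TG ovaries Ms4a4d, at 10.5 ± 2.58 FPKM, stood clear of the next gene, Ms4a7 at 4.85 ± 0.902. Ms4a6c and Ms4a6b dropped to 3.64 ± 0.60 and 2.37 ± 0.389 FPKM. Ms4a4c moved from the sixth place in WT to the ninth in TG.

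The summed level of the 10 members was 31.2, 28.0 and 28.7 FPKM in TG and 63.0, 47.6 and 55.7 FPKM in WT. The make-up of this sum is given as a description, with no test. Ms4a4c held 1.41% ± 0.543 of it in TG and 8.29% ± 1.27 in WT, and Ms4a6c 12.4% ± 2.20 and 18.7% ± 1.84 (SD, n = 3 each). Ms4a4d held 35.5% ± 7.03 in TG and 23.1% ± 2.12 in WT. The share of Ms4a7 was close in both, at 16.5% ± 2.20 and 16.3% ± 1.88. Shares of 1 sum depend on each other, so a smaller share of Ms4a4c and Ms4a6c leaves a larger one for the rest.

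**Figure D2:**
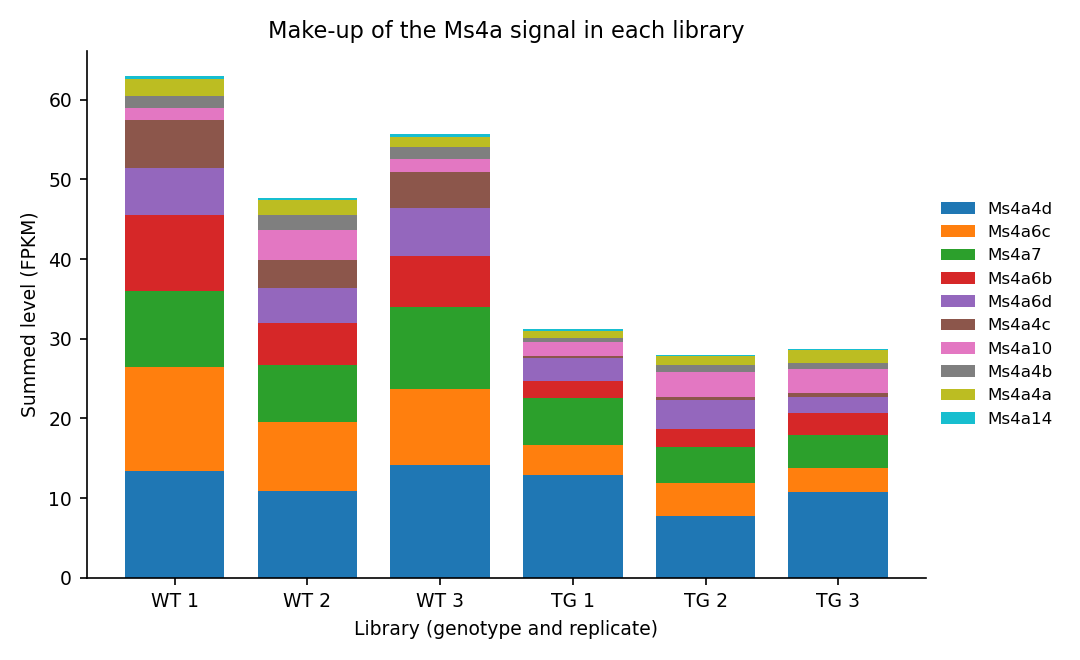
Summed level of the 10 members in each library, in FPKM, divided by gene, with the genes stacked in the order of their read counts. The WT bars reach 47.6 to 63.0 FPKM and the TG bars 28.0 to 31.2 FPKM, and the band of Ms4a4c is 3.39 to 6.08 FPKM thick in WT and 0.25 to 0.53 FPKM in TG.

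The 15 genes lie between positions 10962289 and 11623790 of chromosome 19 (RefSeq, GRCm38.p6, the assembly to which the mm10 build of the submitters' notes corresponds). The 3 genes that fell, Ms4a4c (Entrez gene 64380, 11404717 to 11427246), Ms4a6c (73656, 11469353 to 11487182) and Ms4a6b (69774, 11518559 to 11530403), follow each other within the cluster with Ms4a4b between the first pair. Ms4a4d, at 11536794 to 11558466, is the next tested gene after Ms4a6b and did not pass. Outside the family, 22 tested genes lay within 500 kb of the cluster. Of these 0 were called in edgeR, beside 1.05% of all tested genes in either direction. At an unadjusted p under 0.05 there was 1, Slc15a3, beside 4.08% of tested genes. Its log2 fold change was -0.82, at an adjusted p of 0.454 in edgeR. Slc15a3 is a lysosomal peptide transporter of macrophages and dendritic cells and was named after its value was seen. The 22 fold changes ran from -0.82 to 0.27 with a median of 0.0.

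**Figure D3:**
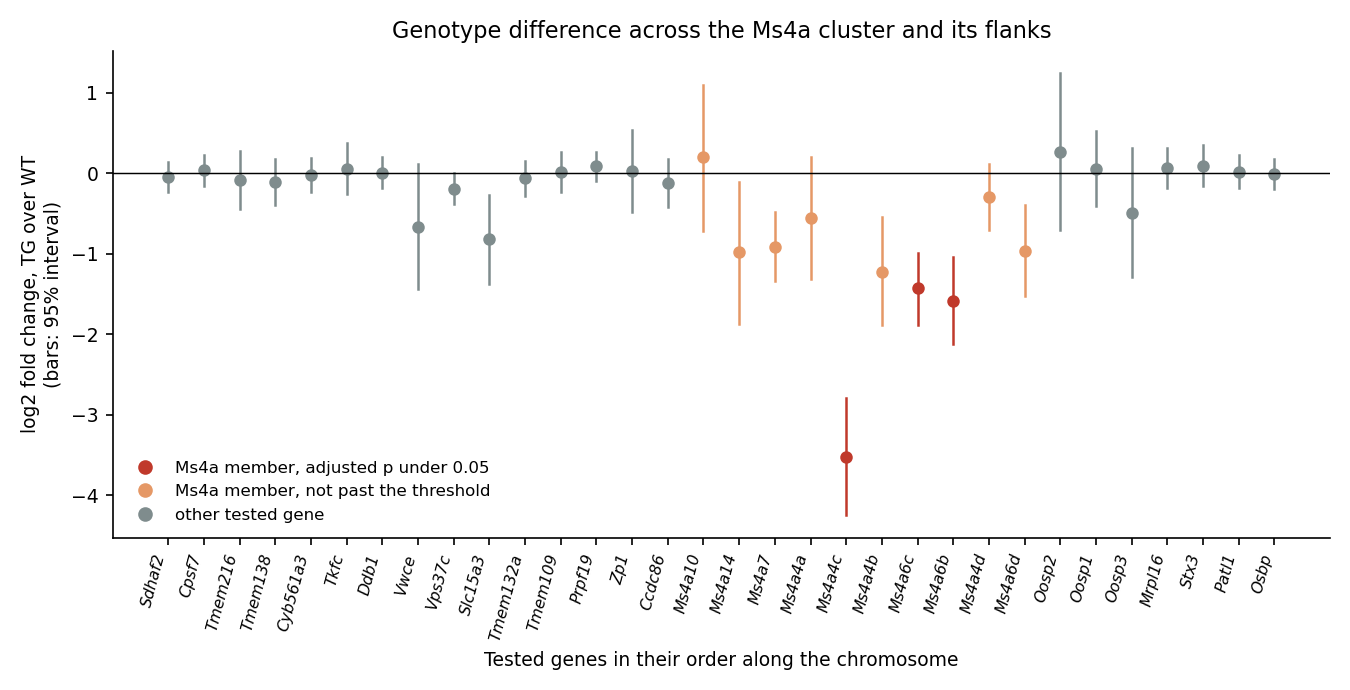
Log2 fold change of TG over WT with its 95% interval for each tested gene of the Ms4a cluster and within 500 kb of it, in the order of the genes along the chromosome (spacing not to scale). Ms4a4c at -3.52, Ms4a6c at -1.43 and Ms4a6b at -1.58 passed the test, and the grey genes on both sides lie between -0.82 and 0.27.

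Reads of similar members could in principle be assigned to the wrong gene. Of all stretches of 50 bases in their coding GENCODE transcripts, Ms4a6c shared 11.3% with another gene, mostly Ms4a6b, and Ms4a6b shared 5.89%, mostly with Ms4a6c. Ms4a4c shared 8.19%, mostly with Ms4a4b, and Ms4a4b 4.19%, mostly with Ms4a4c. Ms4a7, Ms4a10, Ms4a4a and Ms4a14 shared 0. The deposited counts of all 15 Ms4a genes were whole numbers in every library, as for 87.7% of all genes. How much of the value of 1 gene of a pair belongs to the other was not tested.

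Among the marker lists of leukocytes, Ly6c2 and Plac8 of the monocyte list were the only genes that passed the test in edgeR. Of 12 macrophage markers edgeR called 0 lower and DESeq2 3, beside 1.02% and 1.27% of all genes tested in each. At an unadjusted p under 0.05 in edgeR there were 7, against 4.08% of tested genes. A fold change below 0 was found for 10, against 49.3%. The median of the markers was -0.48, beside 0.0 over all tested genes. Their summed level was 341 to 373 CPM in TG libraries and 361 to 583 CPM in WT libraries. The complement gene C1qa, with 56.6, 55.5 and 53.4 CPM in TG and 96.8, 67.1 and 124 CPM in WT, stood at -0.80 on the log2 scale, SE 0.18, with an adjusted p of 0.133 in edgeR. Csf1r, the receptor that macrophages need for survival, had -0.52 (SE 0.13, adjusted p = 0.189). C1qb and C1qc, the other chains of the C1q complex, had -0.65 and -0.67 and also missed the threshold in edgeR. Near or above 0 were Mrc1 at -0.03, Lyz2 at -0.08, Cd163 at 0.02 and Mertk at 0.22, so the markers did not fall alike. Without WT replicate 2 the count called rose to 3, all from the C1q genes. Without WT replicate 3 the log2 fold changes of C1qa, C1qb and C1qc were -0.57, -0.35 and -0.41. WT replicate 2 was the lowest WT library for 10 of these 12 markers and for 7 of the 10 Ms4a members. The same share over all tested genes was not counted, so these counts are a description only.

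Monocyte markers were split. Of the 7 tested, Ly6c2 and Plac8 fell in edgeR, beside 1.02% of all tested genes called lower, and the other 5 did not pass. The 7 had a median of -0.52 and a range from -3.25 to 0.24. Ly6c2, a surface antigen of inflammatory monocytes, measured 0.499, 0.919 and 1.34 CPM in TG and 10.7, 7.11 and 8.57 CPM in WT, which is -3.25 on the log2 scale, SE 0.32, at an adjusted p of 4.84e-04 in edgeR. Its estimated counts were not whole in 3 of the 6 libraries. Plac8, a gene of monocytes and lymphocytes, had a log2 fold change of -1.81, SE 0.15, at an adjusted p of 1.64e-04 in edgeR. By contrast Ccr2, the chemokine receptor by which monocytes leave the bone marrow, had -0.52 (SE 0.36), and F13a1 had 0.24 (SE 0.21). The summed level of the list was 32.4 to 34.3 CPM in TG and 68.0 to 91.7 CPM in WT.

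Lymphocyte and neutrophil markers were low. Summed levels were at most 11.5 CPM for T cells, 9.63 for NK cells, 7.05 for B cells and 3.41 for neutrophils in any library. None of these lists had a called member among the 6, 3, 2 and 1 tested. Over all tested genes 1.05% were called in either direction, a share at which 0 says little about so few genes. Dendritic cell markers, at 33.4 to 40.9 CPM over all libraries and mostly Zbtb46 (22.9 to 27.3 CPM), had 0 of 7 called and a median of -0.08. The others of that list lay between 0.402 and 7.60 CPM, so its sum mostly describes 1 gene. At an unadjusted p under 0.05 in edgeR there was 1 gene in each of these lists except that of NK cells, which had 0. They were Cd4 of the T cell list at -0.59, Cd22 of the B cell list at -0.89, Csf3r of the neutrophil list at -0.81 and Xcr1 of the dendritic cell list at -0.62. Over all tested genes 3.14% were lower at that threshold and 4.08% passed it in either direction. In the mast cell list, where Hdc made up most of the signal, 0 of 3 were called. Cma1, a protease of mast cell granules, had -1.09 (SE 0.42, edgeR unadjusted p = 0.0269 and adjusted p = 0.928). Of the untested genes of the list, Mcpt4, Mrgprb1 and Fcer1a had at most 5 reads in any library, and Tpsb2 had 5 to 26. The tested genes Cpa3 and Cma1 had 7 to 19 and 8 to 26 reads. Counted over these lists, DESeq2 also called 0.

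All 18 tested genes of the interferon-response list were called lower in edgeR, beside 1.02% of all tested genes, with a median of -2.80 and a range from -4.03 to -1.30. Their summed level was 405 to 420 CPM in TG and 1580 to 2420 CPM in WT. WT replicate 2 was the lowest WT library for 17 of 18, a share not counted over all tested genes. Irf7, a factor that amplifies interferon production, measured 227 ± 57.1 CPM in WT and 16.5 ± 2.17 CPM in TG (SD, n = 3 each), and the log2 fold changes of Isg15 and Ifi44 were -3.63 and -3.13. The fold change of Ms4a4c lies inside the range of this list, those of Ms4a6b and Ms4a6c at its weak end, and those of the 7 other members outside it. How far the markers and the interferon-response genes account for the Ms4a values was not tested.

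**Figure D4:**
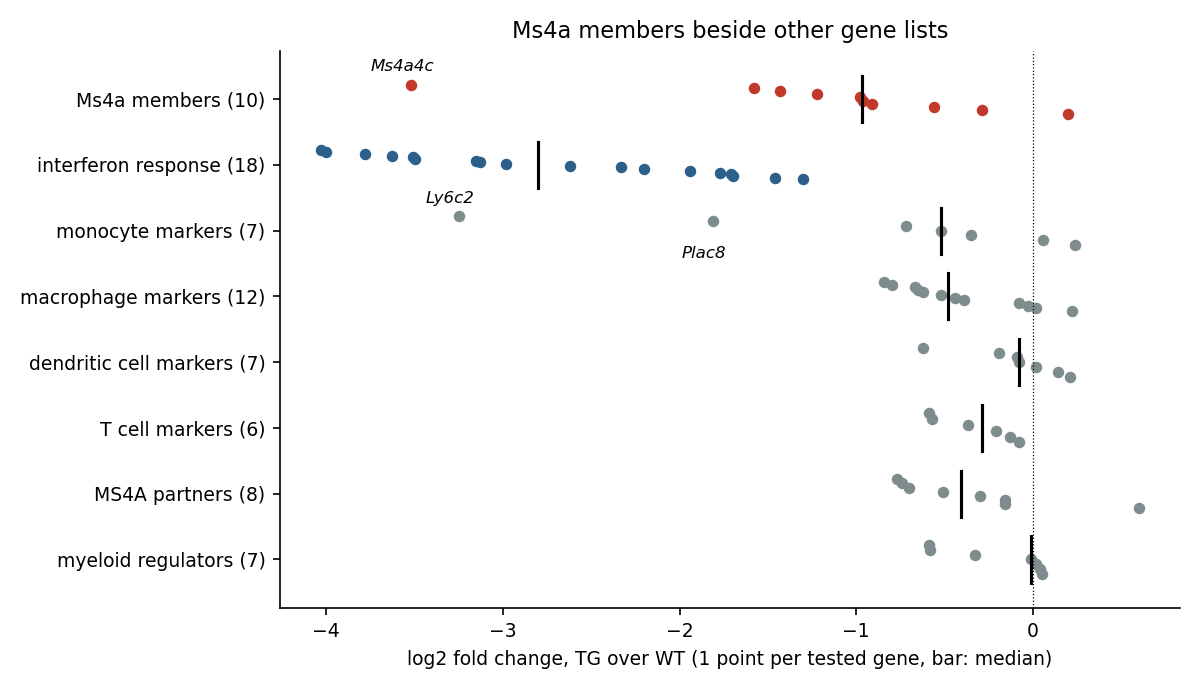
Log2 fold change of TG over WT for the 10 members and for each tested gene of 7 lists, with a bar at the median of each row and the number of genes in brackets. The interferon-response genes lie between -4.03 and -1.30, the macrophage markers between -0.84 and 0.22, and Ms4a4c at -3.52, with Ly6c2 at -3.25 and Plac8 at -1.81 apart from the other monocyte markers.

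Members were also set against the macrophage markers of the same library, as reads per 1000 reads of those 12 genes. The log2 fold changes of these markers ran from -0.84 to 0.22, and monocyte markers such as Ly6c2 are not among them. The ratio is therefore not a correction for cell numbers, which were not tested. Ms4a4c had 1.04, 2.02 and 2.33 in TG and 18.8, 15 and 12.1 in WT, an 8.51-fold difference of means. Ms4a6b had 8.33, 9.94 and 12.2 in TG and 28.6, 22.5 and 16.8 in WT, or 2.23-fold. Ms4a6c had 16.2, 19.4 and 14 in TG and 40.4, 37.2 and 23.9 in WT, or 2.05-fold. All 3 were lower in every TG library than in every WT library on this measure, as were Ms4a7 at 1.4-fold and Ms4a4b at 1.81-fold. Of all tested genes 1.36% were lower in every TG library on this ratio. Ms4a4d, at 37.9 ± 7.29 in TG and 35 ± 3.87 in WT (SD, n = 3 each), overlapped. For the 5 members without overlap the two-sided exact permutation test gave p = 0.1, and 0.2 after adjustment over the 10 members. The value of 0.1 is the smallest that 3 animals against 3 allow. It follows from the absence of overlap and adds nothing to it.

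**Figure D5:**
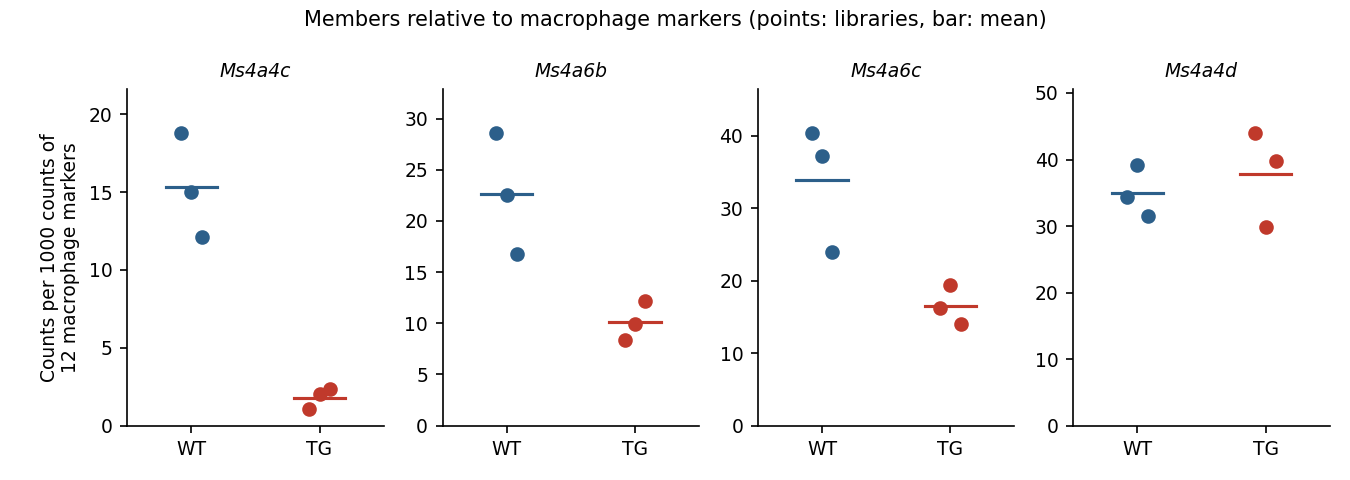
Reads of 4 members per 1000 reads of 12 macrophage markers in each library, with points for libraries and bars for the mean of 3, on axes that start at 0. Ms4a4c lies at 1.04 to 2.33 in TG and 12.1 to 18.8 in WT, whereas Ms4a4d overlaps, at 29.8 to 44.0 in TG and 31.5 to 39.2 in WT.

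Genes for proteins that work with MS4A members did not pass the test in edgeR. Of 11 partners 8 could be tested and 0 were called in edgeR, which is near the 1.02% of all tested genes called lower. Their fold changes were below 0 for 7, beside 49.3% of all tested genes, with a median of -0.40. Fcer1g, the shared signalling chain of Fc receptors, measured 21.7, 25.3 and 22.6 CPM in TG and 41.6, 24.3 and 47.6 CPM in WT. Its WT replicate 2 fell within the TG range, and its log2 fold change of -0.70 had an adjusted p of 0.446 in edgeR but passed in DESeq2 at 0.0455 and without WT replicate 2 at 0.00272. The kinase Lyn had -0.30 (SE 0.09), Clec7a, the beta-glucan receptor that MS4A4A accompanies, had -0.77 (SE 0.32) and Tyrobp, the adaptor of TREM2, had -0.51 (SE 0.25), with adjusted p of 0.494, 0.9997 and 0.9997. Of 7 myeloid regulators 0 were called, also near that share of 1.02%, with a median of -0.01. The ETS factor gene Spi1, which encodes PU.1, had 5.83, 5.92 and 8.22 CPM in TG and 10.1, 6.84 and 13.2 CPM in WT (log2 fold change -0.59, SE 0.25, adjusted p = 0.9997). Csf1, the ligand of the macrophage receptor, had -0.58 (SE 0.17, adjusted p = 0.378), and passed with the replicate number as a block (0.0338) and without WT replicate 2 (0.0479).

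The 5 Ms4a genes outside the 10 members had few reads. Ms4a1, the B cell antigen CD20, had 7, 7 and 8 reads in TG and 11, 6 and 10 in WT, and was not tested because it missed the filter on low counts. Ms4a8a had 0 to 4 reads a library, Ms4a15 and Ms4a18 had 0 or 1. Ms4a2, the chain of the IgE receptor, had 0 reads in each TG library and 1, 0 and 3 in WT. A count of 0 allows up to 3 reads, or 0.169 to 0.176 CPM of the library total in the TG libraries, so no difference was detectable at this depth. This limit covers counting error only.

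Across the 13460 tested genes with a mean of at least 1 CPM, those whose profile over the 6 libraries came closest to that of Ms4a4c, by the Euclidean distance of log2(CPM + 0.1) centred on each gene's mean, were Ly6c2 (distance 0.36), Apol9b (0.55), Irf7 (0.75), Zbp1 (0.78) and Oas2 (0.81). Closeness to the profile of Ms4a4c requires a similar fall, so that all 5 fell in TG follows from the choice. Their log2 fold changes were -3.25, -3.15, -3.78, -3.70 and -2.98. The nearest to Ms4a4d were Cd300ld (0.10), Tnfsfm13 (0.16), Peli3 (0.16), Serping1 (0.17) and Fgl2 (0.17). None of these passed in edgeR, and their fold changes, between -0.37 and -0.24, are likewise close to that of Ms4a4d by choice. Ms4a4d and Fgl2 were both lowest in TG replicate 2, at 10.2 and 48.4 CPM. Among the members themselves Ms4a7 and Ms4a14 (0.50), Ms4a7 and Ms4a6d (0.58), Ms4a6d and Ms4a14 (0.64) and Ms4a6c and Ms4a6b (0.65) were the closest pairs. These distances describe 6 libraries of 2 genotypes and carry no test.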

How the data were processed

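RNA of whole ovaries was sequenced on a BGISEQ-500, per the labels' protocols, and of mm10, Bowtie2, DESeq2 1.4.5 and RSEM 1.3.1, all listed in the submitters' processing notes, no role is given. The table deposited by the authors holds read counts, per the file headers, taken as estimated counts since some are not whole, and a column set with no named unit. That set was taken as FPKM deposited by the authors, because count over value scaled between libraries as the totals did (0.963 to 1.041 against 0.961 to 1.042 of TG replicate 1) and implied 94.3% to 94.6% of the annotated length of 121 genes with a single transcript. The deposited group means were not used.

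Rounded counts went into edgeR 4.0.16 under R 4.3.3 (normalization by TMM, filterByExpr with a minimum count of 10 and total of 15, quasi-likelihood test, two-sided, Benjamini-Hochberg over 14124 genes, threshold 0.05). Each adjusted p is from this fit unless another is named. SE is the fold change over the square root of F, and intervals use the t distribution. The test was tried on simulated counts. Alternatives used DESeq2 1.42.0, limma 3.58.1, other normalizations, filters, a replicate block and leaving out libraries.

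The members and the gene lists were chosen with earlier results of these data known. The text names each member, the profile neighbours, and list genes among the 4 with the smallest p, mostly those with an unadjusted p under 0.05. Ccr2, F13a1, Mrc1, Lyz2, Cd163, Mertk, the untested mast cell genes, Zbtb46, Foxl2, Zp3, the promoter motifs and Cfd, Des and Ovgp1 were chosen after values were seen. Promoters and coordinates are RefSeq GRCm38.p6, matched by Entrez number for 10 of 10 members (18165 of 18280 genes). Precision is limited by 3 animals a group.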

Additional observations from a re-analysis of the deposited data

How the results depend on the processing

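The count of members called lower stayed between 2 and 4 over the 18 alternatives, and 0 members were called higher in any. It was 2 without TG replicate 1, without TG replicate 2 and without both TG replicate 2 and WT replicate 3 (chosen after seeing the data), where Ms4a6b missed the threshold, and 4 in DESeq2 and without WT replicate 2, where Ms4a7 passed. The cause was not tested. Of 175 comparisons of a member with an alternative, 167 kept direction and side of the threshold. Ms4a10 changed direction, with a log2 fold change of -0.16 without TG replicate 2 and WT replicate 3, and leaving out 1 library at a time gave -0.04 to 0.78. The macrophage list had 0 called in edgeR and 3 in DESeq2 and without WT replicate 2, the partner list 0 and 1, and the myeloid regulators 0, with 1 without WT replicate 2 and with the block. Levels per kilobase of the longest coding GENCODE transcript in WT were 4 for Ms4a6b, which put it sixth, and 0.375 for Ms4a4b, against 7.07 and 1.63 FPKM. The alternative on RefSeq transcript lengths was not run.

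With the replicate number as a block (replicate block), 3 members were called lower, as without it, beside 1.08% of all tested genes. Deviations of same-numbered libraries correlated at 0.228, 0.0797 and 0.0935, and each library correlated best with its own number, a hint from the data, since nothing in the labels ties the numbers across genotypes. Ms4a4b, Ms4a4a, Ms4a14 and Ms4a10 had at most 50 reads in any library, and depth limits what they can show.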
